A study of Mus musculus with 12 samples.

Results

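Cadherins and protocadherins are cell surface adhesion proteins built from repeats that bind calcium. The genes described here are the protein-coding genes whose GRCm38 symbol is Cdh followed by a number or begins with Pcdh, found by matching each deposited gene identifier to its symbol. They number 92 of the 55487 genes in the files. Of these, 35 lie outside the protocadherin clusters, namely 23 cadherins and 12 unclustered protocadherins, and 57 lie in the clusters on chromosome 18, namely 14 Pcdha, 22 Pcdhb and 21 Pcdhg genes. The symbol Pcdha11 belongs to 2 identifiers, which were kept apart, and Pcdhgb8, a polymorphic pseudogene, was left out.

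RNA-seq was done on ventricular zone cut by laser microdissection from the dorsal cortex of mouse embryos, in 12 libraries of 4 groups with 3 libraries each. The E13.5 p18mKO2- and E16.5 p18mKO2- groups have a genotype labelled normal. The E13.5 p18mKO2+ and E16.5 p18mKO2+ groups are labelled as over-expressing p18mKO2, from a ROSA26 cassette in which a stop sequence flanked by loxP sites precedes p18, a cyclin-dependent kinase inhibitor, joined through P2A to the fluorescent protein mKO2. Embryos of all 4 groups received tamoxifen, given by intraperitoneal injection to induce Cre recombination, and the labels name neither the Cre driver, nor the day of injection, nor the share of cells recombined. Whether a replicate is an embryo of its own or of its own litter is not stated, and the p-values rest on differences among libraries, some of which may be technical repeats. Sex-linked transcripts differed among libraries in every group but E13.5 p18mKO2-, so the other groups were not all repeats of a single sample. The study set out to relate such inhibitors to the change from making neurons to making astrocytes.

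Classical cadherins bind the same cadherin on a neighbouring cell, and their tails hold beta-catenin and p120-catenin, which tie the junction to actin. In the ventricular zone, N-cadherin (Cdh2) joins the end feet of radial glia, the dividing progenitors, into an adherens junction belt at the ventricle, while type II cadherins and unclustered protocadherins mark regions, layers and nerve cell classes. The clustered protocadherins give neurons surface identities, because each neuron uses its own choice of promoters; each Pcdha and Pcdhg gene is a variable exon spliced to constant exons shared by its cluster, Pcdhb genes have no such shared exons, and the C-type genes (Pcdhac1, Pcdhac2, Pcdhgc3, Pcdhgc4 and Pcdhgc5) are chosen less at random than the others, called alternate.

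Library totals lay between 17101953 and 21837090 expected counts. Cdkn2c, the gene for p18, was not called at either stage, with a log2 change of 0.14 ± 0.26 (SE; adjusted p = 0.798) at E13.5 and 0.32 ± 0.26 (adjusted p = 1) at E16.5, and its CPM overlapped between the p18 groups at both stages. In deposited TPM, every p18mKO2+ library lay above every p18mKO2- library, at 27.7 to 32.6 against 16.1 to 26.5 at E13.5 and 32.1 to 43.5 against 13.7 to 28.7 at E16.5. The scales thus differ on the targeted gene, and "p18mKO2+" below means the libraries so labelled. Replicate 3 of E13.5 p18mKO2+ and replicate 3 of E16.5 p18mKO2+ held transcripts of both sexes. Y-linked transcripts summed to at most 0.415 CPM in the E13.5 p18mKO2- libraries and to 0.0, 178 and 88.9 CPM in E13.5 p18mKO2+. They summed to 0.0614, 168 and 0.232 CPM in E16.5 p18mKO2- and to 135.5, 182 and 81.7 in E16.5 p18mKO2+. A ribosomal RNA gene, CT010467.1, took 52440 to 87990 CPM in E13.5 p18mKO2-, 26190 to 65840 in E13.5 p18mKO2+, 70620 to 152000 in E16.5 p18mKO2- and 16650 to 39640 in E16.5 p18mKO2+. CPM, the read count on a common library scale, was computed here with library sizes scaled by TMM (trimmed mean of M values).

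In p18mKO2+ libraries at E13.5, a group of cadherins and protocadherins stood higher than in p18mKO2-, among them Cdh8, Cdh10, Cdh12, Cdh13, Pcdh7, Pcdh8, Pcdh9 and several Pcdhb and Pcdhg genes. Of the 86 genes that passed the filter on low counts, 23 rose and 0 fell, which is 26.7%, while 10.8% of all 16798 genes tested were called in either direction, 7.29% as higher and 3.49% as lower (edgeR quasi-likelihood, Benjamini-Hochberg adjusted p under 0.05). DESeq2 called 32 higher and 1 lower (Pcdh19), and limma-voom 15 higher and 0 lower. The median log2 change was 0.99 over the 86 and 0.01 over all genes tested. At E16.5 the same test called 0 of the 86, as it called 0.0% of all genes; at an unadjusted p under 0.05 there were 2 of the 86 and 426 of all genes, and DESeq2 and limma-voom also called 0 of the 86. The 6 genes not tested were Cdh15, Cdh16, Cdh17, Cdh19, Cdh26 and Pcdhb1, each under 1 CPM in every library, with Cdh16 and Pcdhb1 listed at 0 throughout. The filter bears on these counts, because a gene could pass through its high group alone: 58 of the 92 reached its level of 0.521 CPM in all 3 libraries of E13.5 p18mKO2-, 76 in E13.5 p18mKO2+, 79 in E16.5 p18mKO2- and 83 in E16.5 p18mKO2+.

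The count of 23 depended on single libraries. It was 13 without replicate 1 of E13.5 p18mKO2+, 14 without replicate 3 of that group and 15 without replicate 3 of E13.5 p18mKO2-. It was 10 without both libraries holding transcripts of both sexes, and 9 with the ribosomal RNA gene as a covariate, an alternative chosen after seeing the data. The log2 changes of Cdh8, Cdh12, Cdh13, Pcdh7, Pcdh8 and Pcdh9 at E13.5 passed the test under each of 22 alternatives.

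From E13.5 to E16.5 in p18mKO2-, 42 of the 86 rose and 2 fell (Cdh22 and Pcdh19), against 16.4% and 13.4% of all genes tested. In either direction 51.2% of the 86 and 29.8% of all genes were called. Their median log2 change was 1.37, and that of all genes tested was -0.02. In p18mKO2+ 3 rose over the same interval (Cdh4, Cdh8 and Cdh12) and 0 fell, while 1.64% of all genes were called. The p18 effect at E13.5 and the stage change in p18mKO2- share the E13.5 p18mKO2- libraries, so a gene low in them can be called higher in both. The 23 genes called higher in the former were among the 42 called higher in the latter. The same overlap was not counted over all genes tested, so it cannot be read as particular to this family. The p18 effect itself differed with stage, taken as E16.5 minus E13.5, in 7 genes by the same test and was negative in each, which is 8.14% of the 86 beside 2.7% of all genes: Cdh8, Cdh12, Cdh13, Pcdh7, Pcdh8, Pcdh9 and Pcdhb22. A negative difference was also the common one over all genes, called in 2.4% of them, while a positive one was called in 0.298%. The count of 7 was 3 without both libraries holding transcripts of both sexes, 4 without replicate 1 of E13.5 p18mKO2+, 4 without replicate 1 of E16.5 p18mKO2+ and 3 without replicate 2 or replicate 3 of E16.5 p18mKO2+. The count of 3 for the stage change in p18mKO2+ was 1 without replicate 1 of that E16.5 group and 6 without replicate 3 of E16.5 p18mKO2-.

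Groups that did not overlap give a second count that needs no model. At E13.5 the 3 p18mKO2+ libraries lay wholly above the 3 of p18mKO2- in 36 of the 86 genes and wholly below in 0, against 16.6% and 14.1% of all genes tested, or 30.7% in either direction. At E16.5 they lay above in 2 and below in 4, against 4.07% and 3.88%. From E13.5 to E16.5 in p18mKO2- 46 lay above and 1 below, against 21% and 19.4%. Over the same interval in p18mKO2+ 25 lay above and 4 below, against 13.1% of all genes above and 2264 of the 16798 below.

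**Figure D1:**
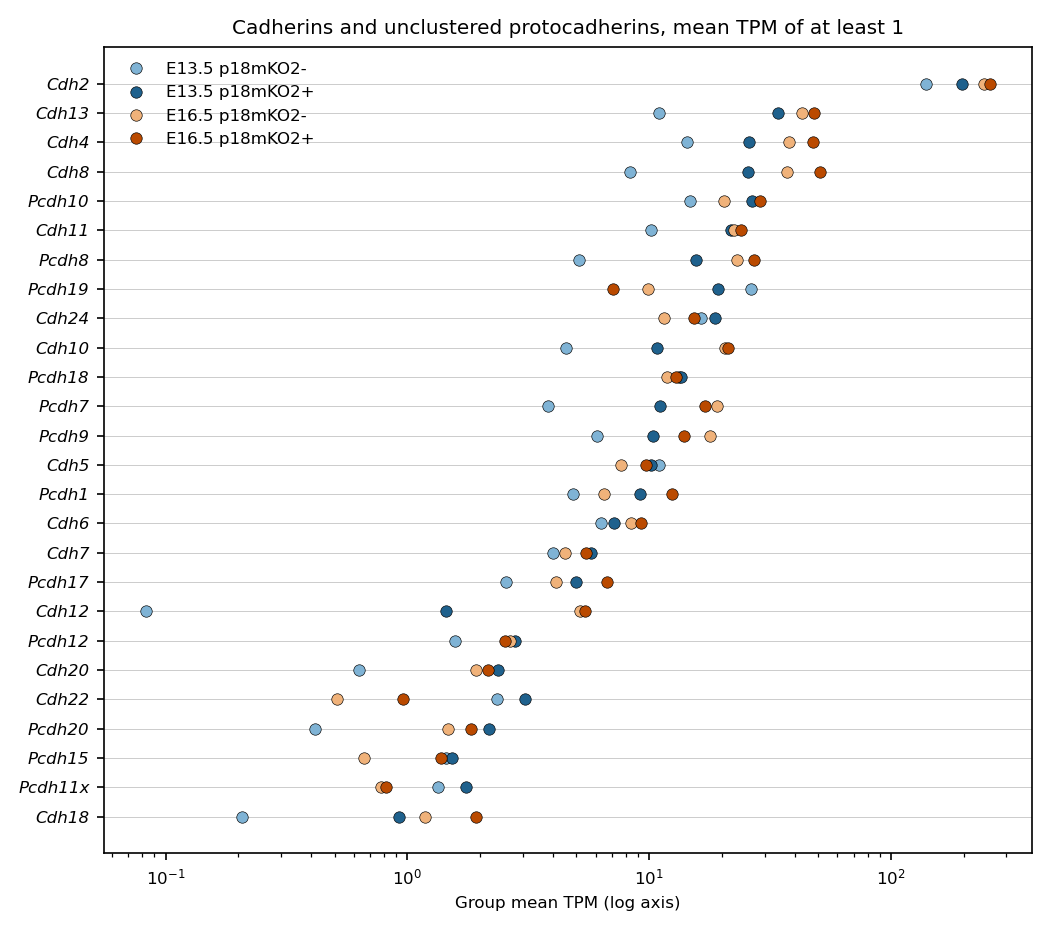
Group mean TPM (transcript abundance scaled by length and library, log axis) of the cadherins and unclustered protocadherins that averaged at least 1 TPM, each point being the mean of 3 libraries and each colour a group. Cdh2 lies to the right of every other gene in each group, and in Cdh12 the E13.5 p18mKO2- point, at 0.0833 TPM, lies far to the left of the rest.

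Type I cadherins mediate strong adhesion between like cells; 1 of the 4 tested rose with p18mKO2+ at E13.5 and 2 rose with stage in p18mKO2-. Among them Cdh2, or N-cadherin, was the most abundant gene of the whole family. Its mean was 139 ± 26.1 TPM (SD, n = 3) in E13.5 p18mKO2-, 197 ± 23.0 in E13.5 p18mKO2+, 242 ± 21.6 in E16.5 p18mKO2- and 256 ± 47.1 in E16.5 p18mKO2+. In counts, Cdh2 stood at 422, 350 and 325 CPM in the 3 E13.5 p18mKO2- libraries, 508, 467 and 388 in E13.5 p18mKO2+, 619, 627 and 715 in E16.5 p18mKO2-, and 592, 568 and 521 in E16.5 p18mKO2+. The E13.5 groups overlapped and the p18 effect there was not called (log2 change 0.31 ± 0.14, adjusted p = 0.192). With stage Cdh2 rose in p18mKO2- by 0.84 ± 0.14 (adjusted p = 6.69e-04), and every E16.5 library of that status lay above every E13.5 one. At E16.5 it was -0.22 ± 0.14 (adjusted p = 1), with the p18mKO2+ libraries all below p18mKO2- on the CPM scale; the group mean TPM ran the other way. TPM over CPM was higher in p18mKO2+ across the genes of the library, with median log2 shifts of 0.17 (E13.5) and 0.27 (E16.5), so directions smaller than this depend on the unit.

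Cdh4, or R-cadherin, which can also pair with N-cadherin, was second among type I genes. It stood at 68.8, 49.5 and 58.4 CPM in E13.5 p18mKO2-, 99.3, 89.6 and 94.6 in E13.5 p18mKO2+, 150, 142 and 181 in E16.5 p18mKO2-, and 195, 148 and 141 in E16.5 p18mKO2+. The E13.5 groups did not overlap, and the E16.5 groups did. Cdh4 rose with p18mKO2+ at E13.5 by 0.68 ± 0.16 on the log2 scale (adjusted p = 0.0160) and with stage by 1.42 ± 0.16 in p18mKO2- (adjusted p = 2.87e-05) and 0.77 ± 0.16 in p18mKO2+ (adjusted p = 0.0314). The E13.5 change lost its call under 4 of 22 alternatives. E-cadherin (Cdh1), the epithelial cadherin, reached at most 0.939 CPM, and its log2 change at E13.5 was -0.32 ± 1.37 (adjusted p = 0.924), so a change of this gene was not detectable at this depth.

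**Figure D2:**
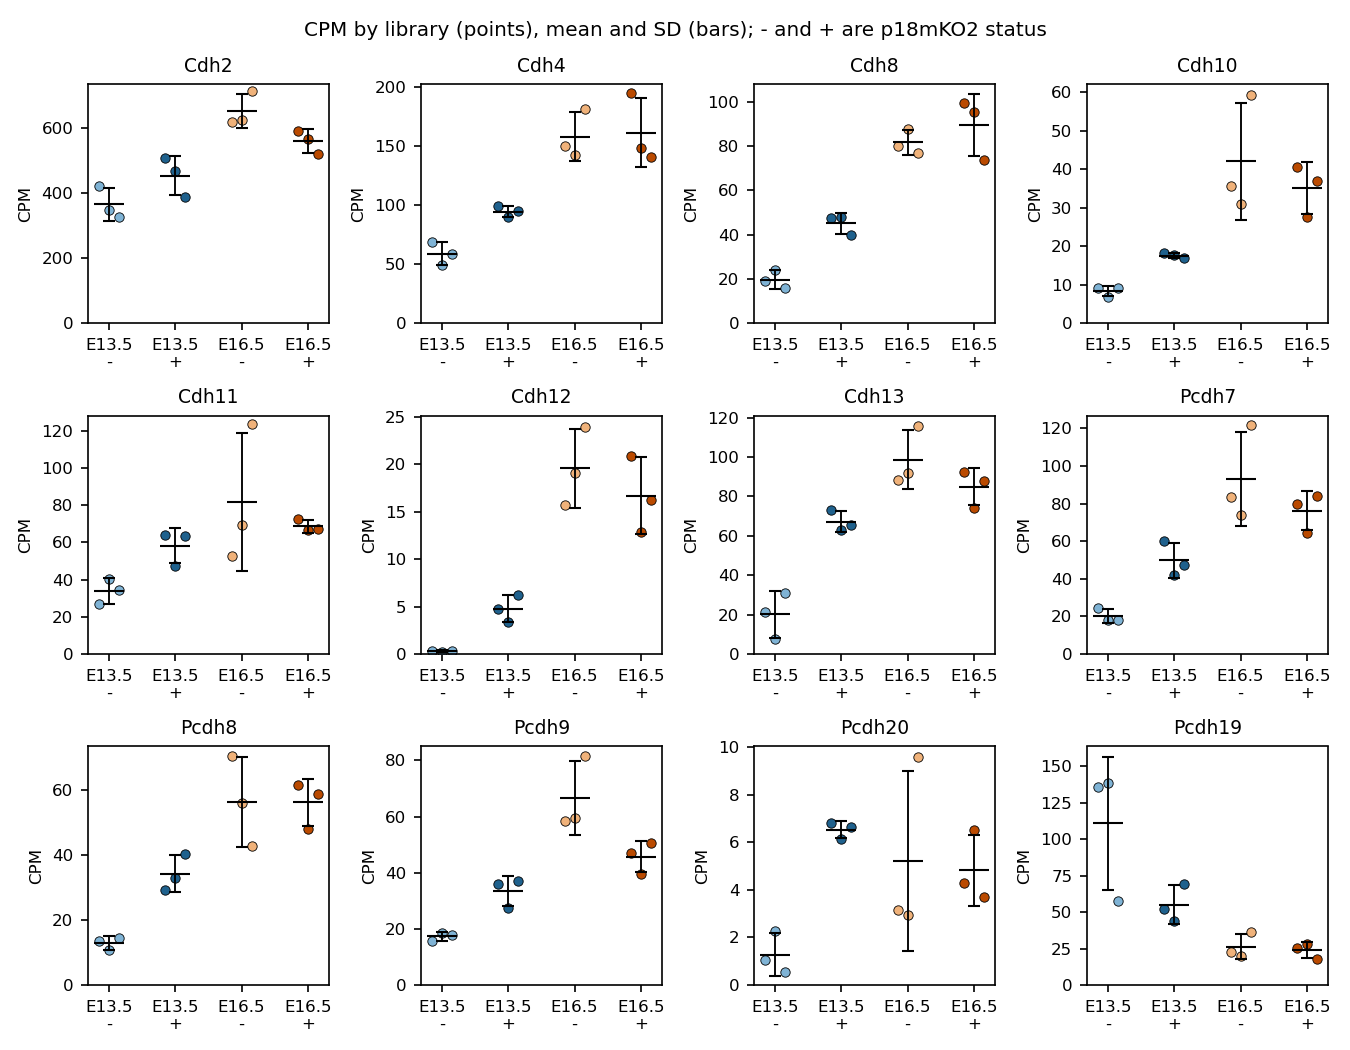
CPM of 12 genes in the 12 libraries (points), with the mean and SD of each group (bars), at E13.5 and E16.5 and for p18mKO2- and p18mKO2+. In Cdh8, Cdh10, Cdh12, Pcdh7, Pcdh8 and Pcdh9 the E13.5 p18mKO2+ points lie between E13.5 p18mKO2- and the E16.5 groups, and Pcdh19 runs from high at E13.5 to low at E16.5.

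Type II cadherins sort neurons into nuclei, layers and areas. Of the 12 tested, 4 rose with p18mKO2+ at E13.5 (Cdh8, Cdh10, Cdh12 and Cdh20), or 33.3% beside 7.29% of all genes. Cdh8, which marks cortical areas and projection neurons (ENSMUSG00000036510, chr8:99024471-99416471, minus strand), stood at 18.8, 24.1 and 15.8 CPM in E13.5 p18mKO2- and at 47.6, 47.9 and 39.7 in E13.5 p18mKO2+. At E16.5 the values were 80.1, 87.9 and 76.8 in p18mKO2- and 99.5, 95.4 and 73.7 in p18mKO2+. Both E13.5 groups lay below all 6 E16.5 libraries, and p18mKO2+ lay above p18mKO2- at E13.5 only. Cdh8 rose with p18mKO2+ at E13.5 by 1.2 ± 0.17 (adjusted p = 9.55e-04). With stage it rose by 2.06 ± 0.17 in p18mKO2- (adjusted p = 2.88e-06) and by 0.99 ± 0.17 in p18mKO2+ (adjusted p = 0.00909). The p18 effect at E16.5 was 0.13 ± 0.17 (adjusted p = 1), and the effects differed between stages by -1.07 ± 0.24 (adjusted p = 0.0309), a call lost under 12 of 21 alternatives.

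Cdh12, also called brain cadherin, moved the most outside the clusters (ENSMUSG00000040452, chr15:20449265-21589533, plus strand). It was near the floor in E13.5 p18mKO2-, at 0.363, 0.217 and 0.351 CPM, or 17 counts over the group. It stood at 4.75, 3.38 and 6.23 CPM in E13.5 p18mKO2+ (318 counts), 15.7, 19.1 and 23.9 in E16.5 p18mKO2-, and 20.9, 12.8 and 16.3 in E16.5 p18mKO2+. The log2 change with p18mKO2+ was 3.92 ± 0.36 at E13.5 (adjusted p = 4.24e-05) and -0.23 ± 0.27 at E16.5 (adjusted p = 1). The difference between stages was -4.15 ± 0.46 (adjusted p = 5.68e-04). With stage Cdh12 rose by 5.95 ± 0.37 in p18mKO2- (adjusted p = 2.26e-07) and 1.80 ± 0.28 in p18mKO2+ (adjusted p = 0.00580). Each of these 4 calls, the difference included, held under every alternative run.

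Cdh10 stood at 9.03, 6.84 and 9.24 CPM in E13.5 p18mKO2- and 18.2, 17.7 and 16.8 in E13.5 p18mKO2+, and at E16.5 at 35.6, 31.1 and 59.5 in p18mKO2- and 40.6, 27.6 and 37.0 in p18mKO2+. It rose by 1.07 ± 0.24 with p18mKO2+ at E13.5 (adjusted p = 0.0127) and by 2.33 ± 0.25 with stage in p18mKO2- (adjusted p = 1.67e-05). Cdh20 was low, with 1.62 ± 1.00 CPM in E13.5 p18mKO2- and 5.40 ± 0.704 in E13.5 p18mKO2+ (SD, n = 3), and rose by 1.73 ± 0.48 (adjusted p = 0.0333). Cdh18 was lower still, with 16 counts in E13.5 p18mKO2- and 109 in E16.5 p18mKO2-, and rose with stage in p18mKO2- by 2.83 ± 0.90 (adjusted p = 0.0290).

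Cdh11, or OB-cadherin, found on neurons and on mesenchyme of the coverings and vessels, had groups that did not overlap at E13.5 (26.6, 40.4 and 34.6 CPM against 64.1, 47.3 and 63.3), but its change of 0.78 ± 0.26 was not called (adjusted p = 0.0687). It rose with stage in p18mKO2- by 1.27 ± 0.26 (adjusted p = 0.00218), where replicate 3 of E16.5 p18mKO2- was the highest library at 123 CPM and the other two stood at 52.7 and 69.2. Cdh6, which marks areas and layers of the cortex, stood between 26.8 and 54.0 CPM in the 12 libraries and was not called in any comparison; its log2 change with p18mKO2+ at E13.5 was 0.06 ± 0.19 (adjusted p = 0.903). Cdh5, or VE-cadherin, the junction protein of blood vessel endothelium, gave 0.05 ± 0.26 (adjusted p = 0.942), with 22.2 ± 8.49 and 22.9 ± 0.757 CPM in the E13.5 groups. Of the 12 endothelial and pericyte markers 2 rose at E13.5, Rgs5 and Cldn5, or 16.7% beside 7.29% of all genes. The summed level of the 12 at E13.5 was 139 to 182 CPM in p18mKO2- and 201 to 223 in p18mKO2+. At E16.5 it was 270 to 282 CPM in p18mKO2- and 252 to 313 in p18mKO2+.

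Cdh22 was the type II gene that fell with stage in p18mKO2-, by 2.19 on the log2 scale (SE 0.66, adjusted p = 0.0230). Its libraries stood at 6.64, 8.63 and 0.994 CPM at E13.5 and 1.11, 1.63 and 0.811 at E16.5, so that the groups overlapped through replicate 3 of E13.5 p18mKO2-. The call was lost under 7 of 21 alternatives.

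Among the other cadherins, only Cdh13 and Cdh23 were tested. Cdh13, or T-cadherin, is held in the membrane by a lipid anchor and lacks the catenin-binding tail (ENSMUSG00000031841, chr8:118283733-119324921, plus strand). It stood at 21.3, 7.76 and 31.1 CPM in E13.5 p18mKO2-, 73.2, 62.9 and 65.3 in E13.5 p18mKO2+, 88.5, 92.0 and 116 in E16.5 p18mKO2-, and 92.4, 74.3 and 88.0 in E16.5 p18mKO2+. Replicate 2 of E13.5 p18mKO2- was the lowest of all 12 libraries, and even the highest library of that group lay below every E13.5 p18mKO2+ library. Cdh13 rose with p18mKO2+ at E13.5 by 1.74 ± 0.33 (adjusted p = 0.00497) and with stage in p18mKO2- by 2.30 ± 0.34 (adjusted p = 1.86e-04). The E16.5 effect was -0.22 ± 0.32 (adjusted p = 1), and the difference between stages, -1.96 ± 0.46 (adjusted p = 0.0381), lost its call under 11 of 21 alternatives.

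Unclustered protocadherins lack the classical catenin-binding tail and signal through their own cytoplasmic partners. Of the 12 tested, 4 rose with p18mKO2+ at E13.5 (Pcdh7, Pcdh8, Pcdh9 and Pcdh20), and the first 3 of these also differed between stages. Pcdh7, or BH-protocadherin (ENSMUSG00000029108, chr5:57717967-58133230, plus strand), stood at 24.3, 18 and 18.2 CPM in E13.5 p18mKO2-, 60.3, 42.1 and 47.3 in E13.5 p18mKO2+, 83.7, 73.9 and 122 in E16.5 p18mKO2-, and 79.9, 64.6 and 84.1 in E16.5 p18mKO2+. All E13.5 p18mKO2- libraries lay below all others. The p18 effect was 1.31 ± 0.21 at E13.5 (adjusted p = 0.00190) and -0.29 ± 0.20 at E16.5 (adjusted p = 1), a difference of -1.59 ± 0.29 (adjusted p = 0.0116). With stage in p18mKO2- it rose by 2.21 ± 0.21 (adjusted p = 8.25e-06).

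Pcdh8, or arcadlin, is an activity-regulated protein that draws N-cadherin away from the synapse surface (ENSMUSG00000036422, chr14:79766775-79771312, minus strand). It stood at 13.55, 10.6 and 14.5 CPM in E13.5 p18mKO2-, 29.3, 33.0 and 40.3 in E13.5 p18mKO2+, 70.3, 56.0 and 42.6 in E16.5 p18mKO2-, and 61.6, 48.0 and 58.8 in E16.5 p18mKO2+. The E13.5 groups were apart from each other and from E16.5, and the E16.5 groups overlapped. Pcdh8 rose with p18mKO2+ at E13.5 by 1.41 ± 0.20 (adjusted p = 0.00109) and with stage in p18mKO2- by 2.13 ± 0.21 (adjusted p = 9.38e-06). The difference between stages was -1.41 ± 0.28 (adjusted p = 0.0192).

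Pcdh9, expressed in layers of the cortex, stood at 15.5, 18.5 and 18 CPM in E13.5 p18mKO2-, 35.8, 27.6 and 37.2 in E13.5 p18mKO2+, 58.6, 59.6 and 81.6 in E16.5 p18mKO2-, and 47.2, 39.6 and 50.4 in E16.5 p18mKO2+. The order of the p18 groups reversed between stages with no overlap at either. Its effect was 0.95 ± 0.18 at E13.5 (adjusted p = 0.00434), and -0.54 ± 0.17 at E16.5, which was not called (adjusted p = 1). The difference of -1.49 ± 0.25 (adjusted p = 0.00720) held under all 21 alternatives, as did that of Pcdh7. In deposited TPM the E16.5 means of Pcdh9 were 17.8 ± 0.511 and 14 ± 1.33, in the same order.

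Pcdh20, known for placing layer 4 neurons, was low in E13.5 p18mKO2-, with 71 counts over 3 libraries. It stood at 1.04, 2.28 and 0.526 CPM there and 6.79, 6.13 and 6.66 in E13.5 p18mKO2+, a rise of 2.34 ± 0.55 (adjusted p = 0.0161). At E16.5 its groups overlapped, at 3.13, 2.95 and 9.56 CPM in p18mKO2- and 4.28, 6.50 and 3.69 in p18mKO2+, and the difference between stages, -2.45 ± 0.75, was not called (adjusted p = 0.103). Pcdh10, or OL-protocadherin, which acts in axon growth, was not called at E13.5 (0.63 ± 0.23, adjusted p = 0.104) although its groups did not overlap; replicate 3 of E13.5 p18mKO2+ stood at 126 CPM and the other two at 74.8 and 66.0.

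Pcdh19, an X-linked gene whose loss causes an epilepsy, was with Cdh22 one of the 2 genes called lower with stage (ENSMUSG00000051323, chrX:133582860-133688987, minus strand). It stood at 136, 138 and 57.8 CPM in E13.5 p18mKO2-, 51.9, 43.6 and 69.5 in E13.5 p18mKO2+, 22.9, 20.2 and 36.0 in E16.5 p18mKO2-, and 25.4, 28.2 and 17.6 in E16.5 p18mKO2+. In CPM, replicate 3 of E13.5 p18mKO2- lay within the range of the p18mKO2+ libraries, away from its own group. In deposited TPM it lay near its own group, at 23.5 beside 28.1 and 27.6, while E13.5 p18mKO2+ stood at 16.4, 11.4 and 29.7. The p18 effect at E13.5, -1.01 ± 0.31, was not called (adjusted p = 0.0557). With stage Pcdh19 fell in p18mKO2- by 2.07 (SE 0.33, adjusted p = 3.25e-04), a call kept under all 22 alternatives, and the change of -1.21 ± 0.32 in p18mKO2+ was not called (adjusted p = 0.0729).

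The windows around the annotated starts of 4 of these genes are shown because Cdh8, Pcdh7 and Pcdh8 rose with stage in p18mKO2- and Pcdh19 fell. Each runs from 250 bases before to 50 bases after the start, 5′ to 3′ on the gene's strand, from RefSeq on GRCm38.p6. Capitals mark the E-box CANNTG, the core bound by proneural factors such as Neurog2, and the POU octamer ATTTGCAT on either strand, which was searched for after the windows were read.
Cdh8, chr8:99416422-99416721, minus strand: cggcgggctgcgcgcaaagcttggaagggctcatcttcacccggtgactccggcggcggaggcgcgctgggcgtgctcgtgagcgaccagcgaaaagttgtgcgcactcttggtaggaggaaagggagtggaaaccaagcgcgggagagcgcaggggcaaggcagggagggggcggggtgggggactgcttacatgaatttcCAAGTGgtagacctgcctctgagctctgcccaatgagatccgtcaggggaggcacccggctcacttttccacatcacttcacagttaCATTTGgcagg
Pcdh7, chr5:57717831-57718130, plus strand: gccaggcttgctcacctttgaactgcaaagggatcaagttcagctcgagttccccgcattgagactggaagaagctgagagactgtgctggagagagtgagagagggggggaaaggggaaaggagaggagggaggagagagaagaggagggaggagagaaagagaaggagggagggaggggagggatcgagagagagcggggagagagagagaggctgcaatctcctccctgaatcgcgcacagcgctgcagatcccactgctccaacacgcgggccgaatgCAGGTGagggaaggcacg
Pcdh8, chr14:79771263-79771562, minus strand: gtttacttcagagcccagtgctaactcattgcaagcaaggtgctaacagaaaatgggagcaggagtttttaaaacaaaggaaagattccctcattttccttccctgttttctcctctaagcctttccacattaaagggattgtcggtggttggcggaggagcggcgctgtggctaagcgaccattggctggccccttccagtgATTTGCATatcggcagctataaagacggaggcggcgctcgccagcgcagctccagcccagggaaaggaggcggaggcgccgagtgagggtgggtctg
Pcdh19, chrX:133688944-133689243, minus strand: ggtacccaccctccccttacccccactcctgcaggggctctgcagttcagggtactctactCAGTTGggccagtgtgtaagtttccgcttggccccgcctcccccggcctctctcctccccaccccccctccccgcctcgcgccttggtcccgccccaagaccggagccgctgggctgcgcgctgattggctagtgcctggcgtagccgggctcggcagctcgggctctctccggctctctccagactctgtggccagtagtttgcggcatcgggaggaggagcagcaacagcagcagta
The Cdh8 window holds 2 E-boxes, those of Pcdh7 and Pcdh19 hold 1 each, and that of Pcdh8 holds an octamer and 0 E-boxes. With Pcdh19 the only one that fell, these 4 genes cannot show whether such letters follow the direction of change. The table had 25 windows for 22 of the 92 genes. An E-box was in 60.0% of those windows and in 72.3% of all 32851 promoter windows of the same length, on either strand, and the octamer was in 1.74% of all windows. CG dinucleotides had a median of 14 a window in those 25 windows and 7 in all windows.

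**Figure D3:**
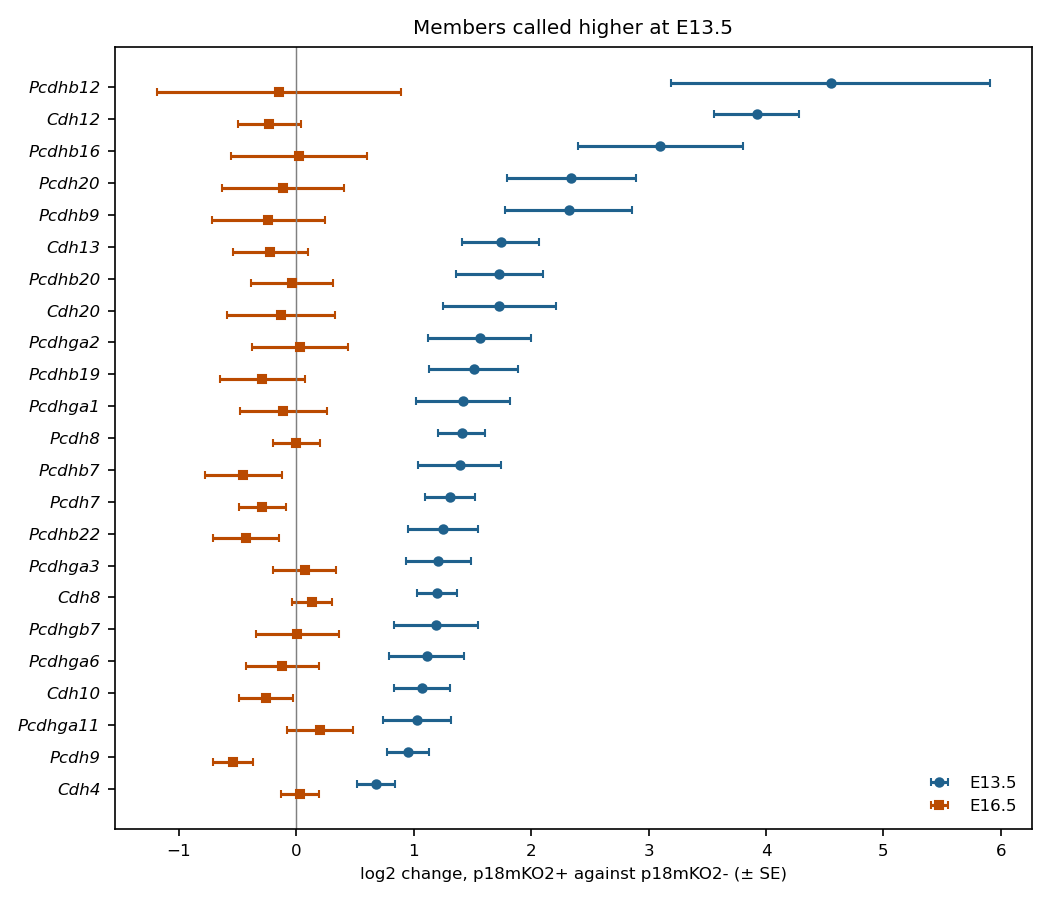
Log2 change of p18mKO2+ against p18mKO2- with its SE at E13.5 (circles) and E16.5 (squares) for the 23 genes called higher at E13.5. The genes were chosen by their E13.5 values; their E16.5 points lie around 0, and that of Pcdh9 stands at -0.54.

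All 3 protocadherin clusters were summed over their genes, and each sum was higher in p18mKO2+ at E13.5 without overlap of the groups. The Pcdha sum stood at 34.7, 23.4 and 24.2 CPM in E13.5 p18mKO2-, 74.3, 45.0 and 85.5 in E13.5 p18mKO2+, 111, 99.0 and 156 in E16.5 p18mKO2-, and 135, 112 and 126 in E16.5 p18mKO2+. The Pcdhb sum stood at 24.4, 27.8 and 23.0, then 65.8, 40.8 and 74.5, then 105, 79.4 and 113, and finally 90.5, 84.1 and 76.8 CPM in the same order of groups. The Pcdhg sum, the largest, stood at 345, 308 and 302, then 509, 482 and 536, then 715, 598 and 535, and finally 696, 648 and 639 CPM. In each cluster the E13.5 p18mKO2- libraries were the lowest of the 12, and replicate 2 was the lowest library of E13.5 p18mKO2+.

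**Figure D4:**
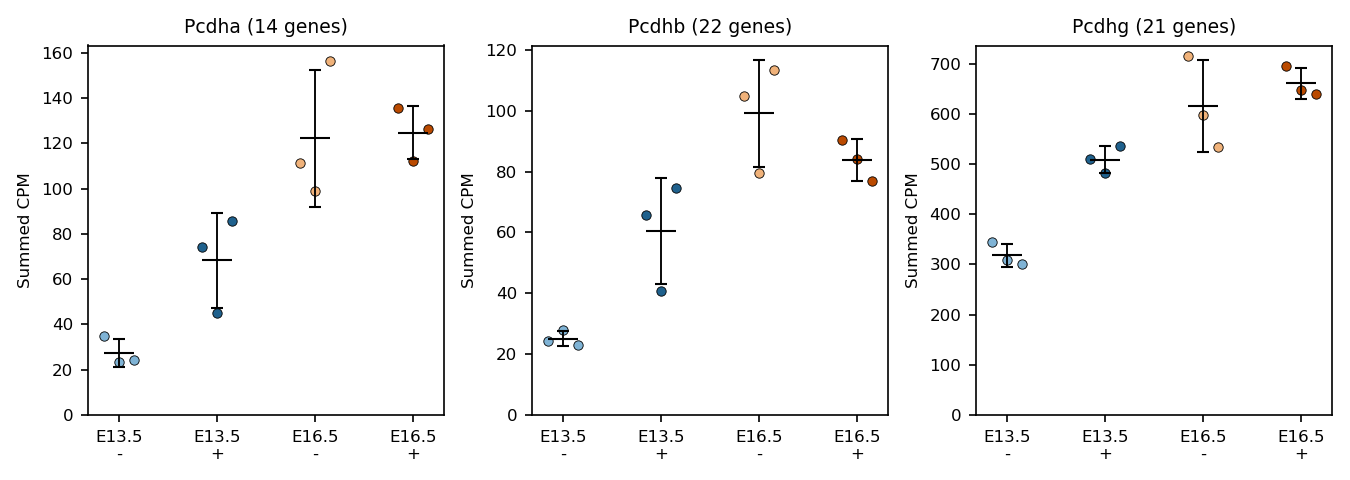
Summed CPM of the Pcdha, Pcdhb and Pcdhg genes in the 12 libraries (points), with the mean and SD of each group (bars), in p18mKO2- and p18mKO2+ at each stage. In each panel the 3 E13.5 p18mKO2- points lie below the 3 of E13.5 p18mKO2+, and the E16.5 groups overlap.

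The log2 ratio of mean sums, p18mKO2+ over p18mKO2- at E13.5, was 1.32 for Pcdha, 1.27 for Pcdhb and 0.68 for Pcdhg. At E16.5 it was 0.03, -0.24 and 0.10, and all 3 pairs of groups overlapped. In summed TPM the E16.5 ratios were 0.30, 0.08 and 0.41, so Pcdhb changed sign and the Pcdhg groups no longer overlapped. With stage in p18mKO2- the ratios were 2.16, 1.98 and 0.95, and in p18mKO2+ 0.87, 0.47 and 0.38. These sums were chosen with earlier results known and are given as values with no test.

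Pcdha genes encode the alpha protocadherins, which bear on axon targeting and branching. By edgeR 0 of the 14 were called at E13.5, beside 10.8% of all genes, while DESeq2 called 2 and limma-voom 0. An unadjusted p under 0.05 by edgeR was found there in 5 of the 14 and in 4271 of the 16798 genes tested. With edgeR 6 of the 14 rose with stage in p18mKO2-, or 42.9% beside 16.4% of all genes. Among them were Pcdha4 by 3.91 ± 0.93 (adjusted p = 0.00603), Pcdha9 by 3.47 ± 0.98 (adjusted p = 0.0162), Pcdha2 by 3.24 ± 0.81 (adjusted p = 0.00827) and Pcdhac2 by 1.77 ± 0.51 (adjusted p = 0.0173). Single libraries differed widely within a group. Pcdha4 stood at 2.75, 0.0 and 1.64 CPM in E13.5 p18mKO2-, 3.44, 2.33 and 13.1 in E13.5 p18mKO2+, 10.9, 10.5 and 45.1 in E16.5 p18mKO2-, and 8.91, 10.3 and 8.75 in E16.5 p18mKO2+. Pcdha9 was listed at 0 in replicates 1 and 3 of E13.5 p18mKO2- and at 2.06 CPM in replicate 2, against 4.17, 4.11 and 7.77 CPM in E13.5 p18mKO2+, and its change of 2.94 ± 0.97 was not called (adjusted p = 0.0687). Of the 14 genes, 3, 8 and 4 were at 0 in the E13.5 p18mKO2- libraries, 2, 1 and 1 in E13.5 p18mKO2+, 0, 1 and 1 in E16.5 p18mKO2-, and 0 in each of E16.5 p18mKO2+.

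Pcdhac2, the C-type gene needed for the even spread of serotonergic axons, stood at 10.7, 2.06 and 3.10 CPM in E13.5 p18mKO2- and 17.9, 8.09 and 19 in E13.5 p18mKO2+, and its change of 1.49 ± 0.50 was not called (adjusted p = 0.0750). Pcdha1 had 0 counts in all 6 E13.5 libraries, 7 counts in E16.5 p18mKO2- and 92 in E16.5 p18mKO2+. With 3 counts set as the floor of each E13.5 group, its E16.5 counts, scaled by library size, were 2.4-fold that floor in p18mKO2- and 32.8-fold in p18mKO2+. These ratios leave out counting error in the E16.5 counts. By edgeR neither stage change was called (adjusted p = 0.156 in p18mKO2-). The assignment uncertainty of Pcdha1, 46.4% of its count, was the highest of the cluster. All 7 counts of E16.5 p18mKO2- came from replicate 1, at 0.430 CPM, and without that library there is no such ratio in p18mKO2-. Assignment limits these values: by the deposited posterior SD of each count, the median Pcdha gene had an uncertainty of 17.4% of its count (7.9 to 46.4%), RSEM divides reads of the shared exons among several genes, and 86.9% of Pcdha values were not whole numbers.

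Pcdhb genes each have a single coding exon of their own, and their counts were almost free of such sharing, with a median uncertainty of 0.0% and a highest of 0.532%. Of the 21 tested, 7 rose with p18mKO2+ at E13.5, or 33.3% beside 7.29% of all genes, and 14 rose with stage in p18mKO2-, or 66.7% beside 16.4%. Pcdhb16 stood at 0.467, 0.163 and 0.0 CPM in E13.5 p18mKO2-, 1.31, 1.83 and 2.52 in E13.5 p18mKO2+, 4.73, 3.76 and 3.24 in E16.5 p18mKO2-, and 3.17, 4.27 and 4.47 in E16.5 p18mKO2+. It rose by 3.10 ± 0.70 with p18mKO2+ at E13.5 (adjusted p = 0.0128), from 12 counts to 126, and by 4.15 ± 0.72 with stage in p18mKO2- (adjusted p = 6.49e-04). Pcdhb9 rose by 2.32 ± 0.54 (adjusted p = 0.0144), from 0.727, 0.597 and 0.117 CPM to 2.18, 2.65 and 2.48. Pcdhb20 rose by 1.73 ± 0.37 (adjusted p = 0.0100), from 1.77, 1.47 and 1.75 CPM to 6.69, 3.15 and 6.79.

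DESeq2 called a difference of the p18 effect between stages in 6 Pcdhb genes and limma-voom in 0. By edgeR the difference was called in 1, or 4.76% beside 2.7% of all genes, namely Pcdhb22. It stood at 3.22, 3.2 and 2.63 CPM in E13.5 p18mKO2-, 8.0, 4.71 and 8.79 in E13.5 p18mKO2+, 14.4, 9.67 and 17.4 in E16.5 p18mKO2-, and 9.56, 9.23 and 12 in E16.5 p18mKO2+. Its effect was 1.25 ± 0.30 at E13.5 (adjusted p = 0.0165) and -0.43 ± 0.28 at E16.5 (adjusted p = 1), a difference of -1.67 ± 0.41 (adjusted p = 0.0448) that lost its call under 12 of 21 alternatives. Pcdhb12 had the largest fitted change at E13.5, 4.55 ± 1.36 (adjusted p = 0.0477), on 66 counts against 2. The ratio of these counts, scaled by library size, was 27.4 with a 95% interval of 7.30 to 231 that covers counting error only. Its groups overlapped, since replicate 2 of E13.5 p18mKO2+ stood at 0.0914 CPM and replicate 3 of E13.5 p18mKO2- at 0.117, and the call was lost under 13 of 20 alternatives. The other Pcdhb genes called at E13.5 were Pcdhb7 and Pcdhb19.

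Pcdhg genes are needed for the survival of interneurons and the branching of dendrites. Of the 21 tested, 6 rose with p18mKO2+ at E13.5, or 28.6% beside 7.29% of all genes, all of them alternate genes (Pcdhga1, Pcdhga2, Pcdhga3, Pcdhga6, Pcdhga11 and Pcdhgb7). With stage in p18mKO2- 9 rose, or 42.9% beside 16.4%. Assignment limits these values as it does for Pcdha, since reads of the shared exons are divided among several genes. By the deposited posterior SD, the median Pcdhg gene had an uncertainty of 6.7% of its count, and 96.8% of Pcdhg values were not whole numbers. Pcdhga1 stood at 1.04, 2.17 and 1.05 CPM in E13.5 p18mKO2- and 3.88, 3.79 and 3.76 in E13.5 p18mKO2+, a rise of 1.42 ± 0.40 (adjusted p = 0.0372), and rose with stage in p18mKO2- by 2.62 ± 0.41 (adjusted p = 3.08e-04). Pcdhga2 had the largest change of the cluster at E13.5, 1.56 ± 0.44 (adjusted p = 0.0352), but its groups overlapped, at 2.75, 2.22 and 4.62 CPM against 8.73, 4.62 and 14.9, and the calls of both Pcdhga1 and Pcdhga2 were lost under 12 of 22 alternatives. Pcdhga12 stayed within 18.2 and 28.2 CPM in all 12 libraries.

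Pcdhgc4, the isoform on which interneuron survival rests, and Pcdhgc3 were the most abundant clustered genes, with mean levels of 121 and 50.1 TPM over the 12 libraries. Neither was called at E13.5 (0.42 ± 0.31, adjusted p = 0.439, and 0.89 ± 0.34, adjusted p = 0.117), while Pcdhgc3 rose with stage in p18mKO2- by 1.21 ± 0.34 (adjusted p = 0.0159). Pcdhgc4 stood at 109, 76.1 and 139 CPM in E13.5 p18mKO2-, 115, 156 and 161 in E13.5 p18mKO2+, 124, 145 and 287 in E16.5 p18mKO2-, and 177, 181 and 295 in E16.5 p18mKO2+. Pcdhgc3 stood at 77.1, 74.8 and 54.2, then 154, 116 and 111, then 224, 190 and 64.3, and finally 208, 173 and 129 CPM in the same order of groups. Replicate 3 was the highest of its group in Pcdhgc4 and the lowest in Pcdhgc3 in all 4 groups. Pcdhgc5 was low, between 2.99 and 8.66 CPM, and gave 0.20 ± 0.40 at E13.5 (adjusted p = 0.816).

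**Figure D5:**
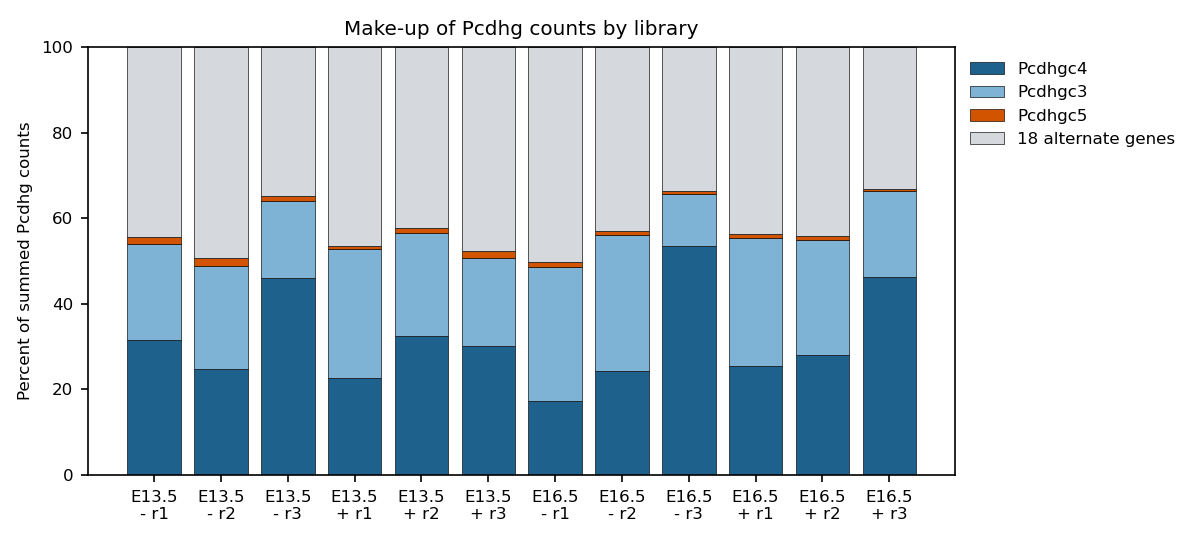
Share of the summed Pcdhg counts, in percent, taken by Pcdhgc4, Pcdhgc3, Pcdhgc5 and the 18 alternate genes in each of the 12 libraries (bars; r1 to r3 are replicates, - and + the p18mKO2 status). The 3 C-type genes together take 49.7 to 66.9%, and Pcdhgc4 alone takes 53.6% in replicate 3 of E16.5 p18mKO2-.

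The 3 C-type genes held 49.7 to 66.9% of Pcdhg counts across libraries, and the 2 Pcdha C-type genes 10.3 to 44.7% of Pcdha counts. At E13.5 the summed alternate Pcdhg genes were higher in p18mKO2+ by a log2 ratio of 0.76 and the C-type genes by 0.61, both without overlap. For Pcdha the alternate genes gave 1.41 without overlap, and the C-type genes 1.08 with overlap. Whether alternate and C-type genes differed in this was not tested.

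Among genes that act with cadherins, 2 of the 12 catenins and linkers tested rose with p18mKO2+ at E13.5 and 0 fell by edgeR, or 16.7% beside 10.8% of all genes called (7.29% higher), with a list median of 0.02. DESeq2 called 2 higher and 3 lower, and limma-voom 2 higher and 0 lower. The 2 called higher by edgeR were Ctnna2, the neural alpha-catenin (0.98 ± 0.15, adjusted p = 0.00141), and Ctnnd2, the neural delta-catenin (0.65 ± 0.11, adjusted p = 0.00286). Both also differed between stages, by -0.98 ± 0.21 (adjusted p = 0.0253) and -0.84 ± 0.16 (adjusted p = 0.0150), or 16.7% of the 12 beside 2.7% of all genes. With stage in p18mKO2- 3 rose (Ctnnd2 by 1.53, Ctnna2 by 1.29 and Ctnnbip1 by 0.70) and 3 fell, Ctnna1, the alpha-catenin of epithelia and progenitors, with a log2 change of -0.75, Arvcf with -0.75 and Ctnnal1 with -0.78. Beta-catenin (Ctnnb1) gave -0.05 ± 0.14 at E13.5 (adjusted p = 0.864).

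Of 24 other cadherin superfamily genes, 14 were tested, and 5 rose with p18mKO2+ at E13.5 while 0 fell, or 35.7% beside the same 10.8% of all genes, with a list median of 0.90. Clstn2, a calsyntenin that organises synapses, rose by 2.33 ± 0.18 (adjusted p = 4.24e-05). Celsr3, which guides axon tracts, rose by 1.13 ± 0.20 (adjusted p = 0.00363), Clstn3 by 1.13 ± 0.29 (adjusted p = 0.0235) and Fat3, an atypical cadherin of neurites, by 0.67 ± 0.19 (adjusted p = 0.0418); Clstn1 was the remaining gene. The effect on Clstn2 differed between stages by -2.79 ± 0.25 (adjusted p = 2.06e-04) and that on Fat4 by -1.02 ± 0.19 (adjusted p = 0.0155), or 14.3% of the 14 beside 2.7% of all genes. With stage in p18mKO2- 6 rose and 1 fell, Fat1, with a log2 change of -0.92 ± 0.22 (adjusted p = 0.00668).

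Regulators of the clusters, which include CTCF, cohesin and its loaders, and enzymes of DNA and histone methylation, held 21 genes tested. By edgeR, DESeq2 and limma-voom 0 were called with p18mKO2+ at E13.5, where 1 had an unadjusted p under 0.05, Dnmt3b (-0.67 ± 0.29, adjusted p = 0.169), a methyltransferase that acts on cluster promoters; Ctcf gave -0.14 ± 0.13 (adjusted p = 0.548). With stage in p18mKO2- 0 rose, beside 16.4% of all genes tested, and 6 fell, or 28.6% beside 13.4%. In either direction 29.8% of all genes were called. Among the 6 were Dnmt3b (-1.39 ± 0.30, adjusted p = 0.00309), Pds5a (-0.47 ± 0.13, adjusted p = 0.0116), Stag2 (-0.47 ± 0.14, adjusted p = 0.0170) and Setdb1 (-0.40 ± 0.12, adjusted p = 0.0249). Of 13 genes of cadherin cleavage and protocadherin signalling, 1 rose at E13.5, or 7.69% beside 7.29% of all genes. It was Cyfip2, a part of the WAVE complex that drives actin branching (0.67 ± 0.17, adjusted p = 0.0199). With stage in p18mKO2- 8 rose, or 61.5% beside 16.4% of all genes, among them Fyn (0.65 ± 0.11, adjusted p = 5.19e-04) and Abi2 (0.69 ± 0.12, adjusted p = 8.27e-04).

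Cell type markers moved with the same comparisons. Of 12 pan-neuronal markers, 7 rose with p18mKO2+ at E13.5, or 58.3% beside 7.29% of all genes. With stage in p18mKO2- 10 rose, or 83.3% beside 16.4% of all genes. Their summed level at E13.5 was 1915 to 2583 CPM in p18mKO2- and 3970 to 6297 in p18mKO2+. At E16.5 it was 6288 to 8129 CPM in p18mKO2- and 6323 to 6986 in p18mKO2+. E13.5 p18mKO2- was the lowest group, as it was for the cluster sums and for Cdh8, Pcdh7 and Pcdh8. Of 11 radial glia markers 6 fell at E13.5, or 54.5% beside 3.49% of all genes. Their sum was 2576 to 2933, 1597 to 2228, 1378 to 1892 and 1619 to 1784 CPM in the same order of groups. Cell cycle markers, 10 in number, had 7 falls at E13.5, or 70.0% beside the same 3.49% of all genes. Their sums were 3141 to 3394, 1538 to 2116, 848 to 1468 and 1158 to 1361 CPM. In bulk tissue, more cells of a type and more RNA of a gene in each cell cannot be told apart, and the part of these markers in the changes of cadherins and protocadherins was not tested.

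Markers of other sources were counted as well. Of 10 ventral and GABAergic markers 2 rose at E13.5 (Gad1 and Lhx6), with a list median of 0.96 there and 1.2 at E16.5, where edgeR called 0 and DESeq2 1; the sum was 214 to 562 CPM in E13.5 p18mKO2-, 630 to 877 in E13.5 p18mKO2+, 234 to 344 in E16.5 p18mKO2- and 454 to 668 in E16.5 p18mKO2+. Meningeal markers summed to 142 to 224, 81.6 to 147, 51.8 to 104 and 34.3 to 103 CPM in the same order of groups. Of these 8 markers 0 had a positive log2 change with p18mKO2+ at either stage. At E13.5 0 were called by edgeR (1 lower by limma-voom). The sums of Cajal-Retzius, hem and choroid plexus markers overlapped between the p18 groups at both stages, microglial markers summed to at most 33.4 CPM, and erythroid markers to 1817 to 2066 CPM in E13.5 p18mKO2- and 971 to 1343 in E13.5 p18mKO2+. Intermediate progenitor markers had 2 of 6 lower at E13.5, or 33.3% beside 3.49% of all genes. In no group were the defining markers at 0, except Wnt8b and Wnt3a in E16.5 p18mKO2-. The part of these sources in the results was not tested.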

How the data were processed

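Laser-dissected ventricular zone gave 12 RNA-seq libraries, made with a directional kit from polyA RNA per the labels' protocols. Per the submitters' processing notes the tools were RSEM 1.2.31, STAR 2.7.2b and cutadapt 3.4, with the GRCm38 (mm10) build; annotation release and strand option: not given in the sources used here. Every gene has 4 values used here, per the file headers: the expected count that the authors obtained from RSEM, its posterior SD, a length, and a deposited TPM, which is scaled by effective length. Expected counts need not be whole, since reads that map to several genes are divided among them.

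Symbols came from GENCODE M21, which held 55141 of 55487 identifiers. Counts were rounded and scaled by TMM, and filterByExpr kept 16798 genes. The test was edgeR 4.0.16 (quasi-likelihood, under R 4.3.3), fitted to the 12 libraries together with a mean for each group and 8 residual degrees of freedom, at a common biological coefficient of variation of 0.311. A call is a Benjamini-Hochberg adjusted p under 0.05 over all genes tested. SE is the absolute log2 change divided by the square root of F. Cluster sums and shares carry no test.

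Alternatives covered DESeq2 1.42.0, limma-voom (limma 3.58.1), RLE scaling, the low-count filter (none, or a mean of 5 CPM), the compared libraries alone, a replicate block, each library left out, and both mixed-sex libraries left out. Covariates for Y-linked transcripts and ribosomal RNA were added after seeing the data. Genes were named by rule: those called in a comparison (with more than 12, the 6 largest rises and falls and the largest of each class), the most abundant in and outside the clusters, 15 with known roles, and up to 4 of each accompanying list. Outside that rule, Cdh10, Cdh18, Cdh20, Pcdha1 and Pcdhga12 were given values, and the printed promoter windows picked, after their values were seen. The genes, lists and sums were chosen with earlier results of these data known.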

Additional observations from a re-analysis of the deposited data

Results flagged for a closer look

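The p18 effect differed between stages for 7 genes by the interaction term of the edgeR model, with a negative difference (E16.5 minus E13.5, log2) in each: Cdh12 by -4.15, Cdh13 by -1.96, Pcdhb22 by -1.67, Pcdh7 by -1.59, Pcdh9 by -1.49, Pcdh8 by -1.41 and Cdh8 by -1.07. Over all genes tested, 403 were called with a negative difference and 50 with a positive one. In all 7 the E13.5 p18mKO2+ libraries lay above the E13.5 p18mKO2- libraries, and in 6 of the 7 the E16.5 groups overlapped, the exception being Pcdh9, where p18mKO2+ lay below. Adjusted p ranged from 5.68e-04 for Cdh12 to 0.0448 for Pcdhb22. The calls of Cdh12, Pcdh7 and Pcdh9 held under all 21 alternatives, while those of Pcdh8, Cdh13, Cdh8 and Pcdhb22 were lost under 5, 11, 12 and 12 of them.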

How the results depend on the processing

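The p18 effect at E13.5, with 23 genes called, gave 15 with limma-voom, 42 with no filter, 15 with the libraries compared alone, 9 with the ribosomal RNA covariate and 10 without the libraries of both sexes; leaving out 1 library gave 13 to 26. The difference between stages, with 7 called, gave 14 with DESeq2, 18 with no filter and 3 without the libraries of both sexes; leaving out 1 library gave 3 to 8, with 4 without E13.5 p18mKO2+ replicate 1, 4 without E16.5 p18mKO2+ replicate 1, and 3 without replicate 2 or without replicate 3 of E16.5 p18mKO2+. The stage change in p18mKO2+, with 3 called, gave 6 with DESeq2, 5 with limma-voom, 13 with no filter and 7 with the libraries compared alone; leaving out 1 library gave 1 (without E16.5 p18mKO2+ replicate 1) to 6 (without E16.5 p18mKO2- replicate 3). The stage change in p18mKO2-, with 44 called, stayed within 1.5 times that count in every alternative and gave 34 to 45 on leaving out 1 library; the p18 effect at E16.5 gave 0 in every alternative. In summed TPM, Pcdhb at E16.5 gave 0.08 against -0.24 in CPM, Pcdhg at E16.5 0.41 against 0.10, and Pcdhg with stage in p18mKO2+ 0.51 against 0.38. The cause of these shifts was not tested, except that leaving out libraries leaves fewer samples. Of 51 called changes of named genes, 29 were called under every alternative that gave a value and 22 lost the call under at least 1, with no change of direction. With the Y-linked covariate 8 of the 51 lost the call, and with the ribosomal RNA covariate 14.

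Same-numbered replicates did not deviate together in every pair (correlations of 0.015, -0.006 and 0.027 at E13.5, 0.102, 0.061 and 0.15 at E16.5, 0.017, 0.103 and 0.205 across stages in p18mKO2-, and 0.031, -0.069 and -0.001 in p18mKO2+). Different-numbered replicates gave -0.114 to 0.099, -0.122 to 0.044, -0.152 to 0.071 and -0.086 to 0.088 in the same order. At E16.5 each same-numbered pair thus lay above every other pair, as did replicates 2 and 3 across stages in p18mKO2-. The numbers were not taken as pairs in the main test, and a replicate block was run as an alternative. With the replicate block the counts were 29 for the p18 effect at E13.5, 0 at E16.5, 9 for the difference, 51 for the stage change in p18mKO2- and 4 in p18mKO2+.

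Depth limits Cdh1, Pcdha1, Pcdhb12 and the other genes under 1 CPM in a group.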

Other observations

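The ratio of Pcdhgc4 to Pcdhgc3 counts ran from 0.555 to 4.46 over the 12 libraries. It was 1.41, 1.02 and 2.56 in E13.5 p18mKO2-, 0.746, 1.34 and 1.45 in E13.5 p18mKO2+, 0.555, 0.767 and 4.46 in E16.5 p18mKO2-, and 0.850, 1.05 and 2.29 in E16.5 p18mKO2+. Replicate 3 had the highest ratio in each group, while across all genes same-numbered replicates did not deviate together in every pair. Both genes share their constant exons, and the posterior SD (median over libraries) was 2.91% of the count for Pcdhgc4 and 2.55% for Pcdhgc3. Pcdhb genes took 6.03 to 7.73% of all clustered counts in E13.5 p18mKO2-, 7.20 to 10.7% in E13.5 p18mKO2+, 10.2 to 14.1% in E16.5 p18mKO2- and 9.12 to 9.96% in E16.5 p18mKO2+.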
